A study of Mus musculus with 18 samples.

Results

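The 10 genes described here are the Eph receptors *Epha3*, *Epha4*, *Epha5*, *Epha7*, *Ephb1*, *Ephb2* and *Ephb3* and the B-class ephrins *Efnb1*, *Efnb2* and *Efnb3*. They are receptors and ligands of one axon guidance family, listed by name with earlier results of these data known. They make up 10 of the 23038 gene symbols and 5 of the 1991 splicing events in the deposited tables. Eph receptors are receptor tyrosine kinases that are activated by ephrins on the surface of a neighbouring cell. The A-class receptors mainly bind ephrins that are tethered by a lipid anchor, the B-class receptors mainly bind the transmembrane B-class ephrins, and EphA4 binds both. Signalling runs forward into the cell with the receptor and in reverse into the cell with the ephrin, and in the developing cortex it steers growth cones and sets boundaries between groups of cells.

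RNA was measured in cortex of CD1 mice at embryonic day 18.5, in *Nova2-/-* and *Nova1-/-* mice and in the wild-type littermates of each, with 3 mice in each of the 4 groups. NOVA1 and NOVA2 are neuronal proteins that bind YCAY motifs in RNA, where Y is C or U, and control alternative splicing. The *Nova2* null allele lacks the first exon, and both knockouts are constitutive. Splicing was also compared between *Nova1-/-* and wild-type midbrain and hindbrain, for which gene abundance was not analysed here.

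Total expected counts lay between 16518172 and 31362018 per mouse. *Nova1* fell from 62.8 ± 18.7 CPM (SD, n = 3) in wild-type cortex to 0.119 ± 0.0889 in *Nova1-/-* cortex, where CPM is edgeR's count scaled for the TMM-adjusted size of each library. *Nova2* fell from 34.7 ± 5.34 to 18.8 ± 2.42 CPM (SD, n = 3) in *Nova2-/-* cortex, and since counts are per gene, the deleted exon was not checked on its own. The 8 markers of cortical neurons were detected in each of the 12 mice, with a summed level of 896 to 1179 CPM. In the *Nova2* litters wild-type replicate 2 stood apart with 21791 genes detected, against 18397 to 19396 in the other mice. It also had the lowest total, 16518172 expected counts. Wild-type replicate 3 of these litters had the highest CPM of the 12 mice for *Ephb2*, 117, and for *Acp1*, 44.2, both described below. *Nova2-/-* replicate 3 and *Nova1-/-* replicates 2 and 3 held both *Xist* above 100 CPM and more than 10 CPM of 4 Y-linked genes, transcripts of different sexes, and their values are given with the closing observations.

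The sequences of the alternative exons of the family are given first, because the splicing results turn on them. In the lines that follow, capitals mark YCAY in its DNA letters, searched as TCAT or as TCAC, and likewise with C for the first letter as CCAT or else as CCAC, with overlaps allowed, and the sequences run 5′ to 3′ on the strand of the gene in mm9. The first set is the cassette exon of *Epha5*, at chr5:84546586-84546651 on the minus strand, with 100 bases of the intron on each side.
Epha5 intron before the exon: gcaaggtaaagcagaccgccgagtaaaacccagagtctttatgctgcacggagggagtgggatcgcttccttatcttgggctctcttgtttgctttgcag
Epha5 exon of 66 nt: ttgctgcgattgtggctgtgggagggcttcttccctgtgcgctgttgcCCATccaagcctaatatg
Epha5 intron after the exon: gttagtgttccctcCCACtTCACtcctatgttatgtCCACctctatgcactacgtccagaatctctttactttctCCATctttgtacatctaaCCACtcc

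The exon held 1 YCAY, the intron before it 0 and the intron after it 5. Of the 164755 annotated internal coding exons of mm9, 2.92% had 5 or more in the 100 bases after the exon, and the median was 1. On the opposite strand of the same stretch after the exon there were 0. The authors had kept events in the table with the help of NOVA binding data, so the presence of the motif was part of how the table was made and is given as a description. The exon is 66 nt long, adds 22 codons without an in-frame stop codon, and is present in 4 of the 8 coding *Epha5* transcripts of the annotation.

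The second set is the only annotated exon inside the *Efnb2* event, at chr8:8623148-8623240 on the minus strand, with the same flanks.
Efnb2 intron before the exon: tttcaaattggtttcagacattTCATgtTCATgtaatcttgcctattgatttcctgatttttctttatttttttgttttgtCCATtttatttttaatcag
Efnb2 exon of 93 nt: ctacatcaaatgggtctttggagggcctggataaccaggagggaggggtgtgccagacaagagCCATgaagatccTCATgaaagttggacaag
Efnb2 intron after the exon: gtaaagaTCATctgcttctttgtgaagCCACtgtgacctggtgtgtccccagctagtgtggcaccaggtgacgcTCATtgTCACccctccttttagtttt

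Here YCAY lay on both sides, with 3 in the intron before the exon, 2 in the exon and 4 in the intron after it. Of all annotated internal coding exons, 25.1% had at least 3 in the stretch before and 8.38% at least 4 in the stretch after. The opposite strand had 0 before, 3 in and 4 after the exon. The exon is 93 nt long, adds 31 codons without an in-frame stop codon, and is present in 2 of the 3 coding *Efnb2* transcripts.

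**Figure D1:**
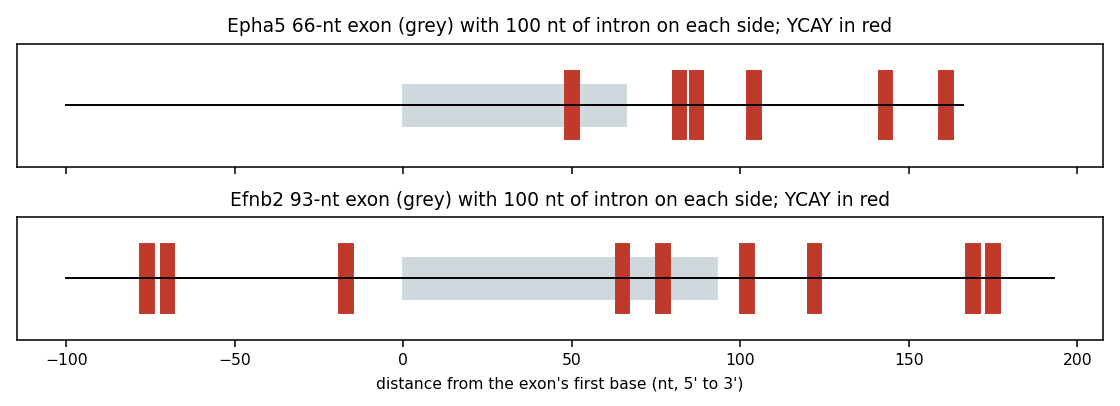
Position of YCAY (red) along the *Epha5* exon of 66 nt and the *Efnb2* exon of 93 nt (grey boxes) and 100 nt of intron on each side, as distance in nt from the first base of the exon. In *Epha5* the motif lies once in the exon and 5 times after it, and in *Efnb2* it lies 3 times before, 2 times in and 4 times after the exon.

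The third sequence is the stretch around both donor sites of the *Epha7* event, at chr4:28865885-28865959 on the plus strand, and here the capitals mark the 15 bases between the donors.
Epha7 donors: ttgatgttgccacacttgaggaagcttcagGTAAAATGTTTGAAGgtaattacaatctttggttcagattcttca

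Both the capitals and the intron after them begin with gt, the letters of a donor site. The longer exon, of 184 nt, is in the 4 coding *Epha7* transcripts, and the shorter one, of 169 nt, is in 2 transcripts annotated without a coding sequence. The 15 bases are 5 codons. The fourth sequence is the shorter of the 2 annotated exons inside the upstream *Epha5* event, at chr5:84666424-84666579 on the minus strand, with YCAY again in capitals.
Epha5 exon of 156 nt: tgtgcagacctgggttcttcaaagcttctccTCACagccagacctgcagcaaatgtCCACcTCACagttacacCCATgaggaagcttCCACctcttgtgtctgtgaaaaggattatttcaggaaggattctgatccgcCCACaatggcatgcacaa

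This exon held 6 YCAY, or 3.85 per 100 bases, a density reached by 6.76% of all annotated internal coding exons. The stretches of 100 bases before and after it held 1 and 0. The opposite strand had 0 before, 3 in and 4 after the exon. This exon of 156 nt is in 6 of the 8 coding *Epha5* transcripts, and the other annotated exon of the event, of 336 nt at chr5:84662608-84662943, is in 4 of them. The exon of 336 nt also held 6 YCAY, or 1.79 per 100 bases, a density reached by 42.8% of all annotated internal coding exons. Its opposite strand had 8. Each of the 4 annotated alternative exons, of 66, 93, 156 and 336 nt, and the 15 bases of *Epha7* are a multiple of 3 in length, as are 41.1% of all annotated internal coding exons.

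Other members have exons of the same length as some of these, matched by length alone and not by position or sequence. An internal coding exon of 93 nt is present once in each of *Efnb1*, *Efnb2* and *Efnb3*, but the table lists no event for *Efnb1* or *Efnb3*. An exon of 336 nt is present once in *Epha3*, *Epha5*, *Epha7*, *Ephb1* and *Ephb2*, and exons of 156 nt are present 2 times in each of the 7 receptors. The other 9 members have no internal coding exon of 66 nt.

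Splicing is given as *Δ*I, the inclusion fraction in wild type minus that in knockout, so a positive value means less inclusion in the knockout. The authors deposited 1 *Δ*I and 1 FDR, an adjusted p, for each event and comparison, so no spread over mice can be given and differences between comparisons were not tested. The table lists events that the authors had already found changed in *Nova2-/-* cortex, with |*Δ*I| of at least 0.1 and FDR below 0.1, so passing these limits there is a property of the table. Of the 10 members, *Epha5* had 3 events, *Epha7* 1 and *Efnb2* 1, and *Epha3*, *Epha4*, *Ephb1*, *Ephb2*, *Ephb3*, *Efnb1* and *Efnb3* had none in the table. The 5 events lie in 4 stretches of the genome that do not overlap, because 2 of the *Epha5* events cover the same exon.

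*Epha5*, an A-class receptor known for the topographic mapping of axons, had the largest change of the family. The cassette exon was included less in *Nova2-/-* cortex by 41.3 percentage points, with a *Δ*I of 0.413 and a deposited FDR of 2.52e-41. Of the 941 cassette exons of the table it ranked 179 by |*Δ*I|. In *Nova1-/-* cortex the *Δ*I of the same exon was -0.0016 with a deposited FDR of 1, and in *Nova1-/-* midbrain and hindbrain it was -0.0071 with a deposited FDR of 0.688. The exon was thus skipped more often in the cortex without NOVA2, while both values without NOVA1 were close to 0.

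The second *Epha5* event, a tandem cassette over the same region, had a *Δ*I of 0.176 in *Nova2-/-* cortex with a deposited FDR of 1.91e-38. Its *Δ*I was 0.00013 in *Nova1-/-* cortex and -0.016 in *Nova1-/-* midbrain and hindbrain. Its span, chr5:84537014-84571405, ends 3 bases short of that of the cassette event, chr5:84537014-84571408, and both hold the exon of 66 nt as their only annotated alternative exon, so both values describe one region and are not independent.

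The third *Epha5* event, a tandem cassette at chr5:84585437-84760916, lies upstream in the gene and holds the annotated exons of 156 and 336 nt. Its *Δ*I in *Nova2-/-* cortex was -0.111 with a deposited FDR of 0.0179, the opposite sign to that of the 66-nt exon. Which of these exons the fraction counts is not defined in the table. It was 0.070 in *Nova1-/-* cortex, with a deposited FDR of 0.636, and 0.033 in *Nova1-/-* midbrain and hindbrain, with a deposited FDR of 0.566. Its |*Δ*I| in *Nova2-/-* cortex lay just inside the limit of 0.1 and ranked 684 among the 720 tandem cassettes of the table.

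*Efnb2*, a B-class ephrin that also marks arterial endothelium, had a tandem cassette event at chr8:8622331-8639489. Its *Δ*I of -0.241 in *Nova2-/-* cortex, with a deposited FDR of 6.89e-05, was negative. The *Δ*I was 0.116 in *Nova1-/-* cortex and 0.053 in *Nova1-/-* midbrain and hindbrain, with deposited FDR values of 0.319 and 0.917. The size in *Nova1-/-* cortex was above 0.1 and had the opposite sign, but its FDR did not pass. The name of the event does not say which exons were counted, and the annotation has 1 exon inside it where a tandem cassette has at least a pair.

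*Epha7*, a receptor with known isoforms that lack the kinase domain, had an alternative donor event at chr4:28865746-28869844. Its *Δ*I was 0.130 in *Nova2-/-* cortex with a deposited FDR of 0.0054, 0.015 in *Nova1-/-* cortex with a deposited FDR of 0.982 and -0.036 in *Nova1-/-* midbrain and hindbrain with a deposited FDR of 0.524. The table does not say which of the donors its fraction counts, so the sign is given without a direction for either exon.

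**Figure D2:**
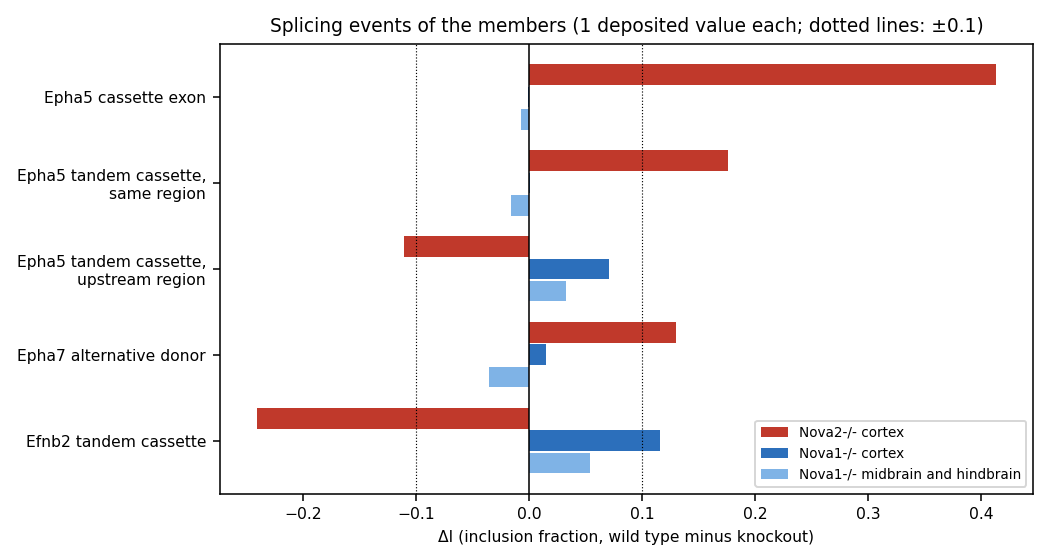
Deposited *Δ*I, the inclusion fraction in wild type minus that in knockout, of the 5 events in *Nova2-/-* cortex (red), *Nova1-/-* cortex (dark blue) and *Nova1-/-* midbrain and hindbrain (light blue), with dotted lines at -0.1 and 0.1. The *Nova2-/-* values lie between -0.241 and 0.413, and the largest *Nova1-/-* value, 0.116 for *Efnb2*, did not pass the FDR limit.

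At |*Δ*I| of at least 0.1 and FDR below 0.1, 0 of the 5 events were changed in *Nova1-/-* cortex and 0 of the 5 in *Nova1-/-* midbrain and hindbrain. Over all 1991 events of the table, 18 passed in *Nova1-/-* cortex, which is 0.904%, and 119 in *Nova1-/-* midbrain and hindbrain, which is 5.98%, so counts of 0 in 5 lie close to the background. The lowest deposited FDR of the 5 events was 0.319 in *Nova1-/-* cortex and 0.524 in midbrain and hindbrain. Their median |*Δ*I| was 0.015 and 0.033, beside 0.034 and 0.038 over all events. The depth behind each *Δ*I is unknown.

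In wild-type cortex the abundance of the 10 members differed widely, and most of the family was well expressed. Levels are compared between genes as CPM per kilobase of annotated exon, over the 6 wild-type mice. The length joins all annotated mm9 exons of a gene, while the annotation used for counting is not given. The order and the folds between genes may depend on that length, and the SD covers the spread between mice alone. *Epha4* was highest with 63.6 ± 4.42 (SD, n = 6), and it did not overlap with any other member. *Epha3*, at 32.3 ± 1.67, and *Efnb3*, at 32.1 ± 2.79, followed and overlapped with each other. *Epha5*, at 24.1 ± 1.90, overlapped with *Epha7*, at 23.1 ± 1.89, which overlapped with *Efnb2*, at 20.2 ± 1.72. *Ephb1* had 14.9 ± 1.19 and stood apart from its neighbours. *Efnb1*, at 8.95 ± 0.650, and *Ephb2*, at 6.67 ± 1.42, overlapped, and *Ephb3* was lowest at 1.31 ± 0.238, 48.7-fold below *Epha4*.

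Each of the 10 members passed the filter on low counts in every comparison, with 128 to 12257 expected counts per mouse. Between the highest and the lowest of the 12 mice the CPM of a member differed by 1.22-fold in *Ephb1* to 1.82-fold in *Efnb1*. Abundance here is RNA per tissue, so a change in the share of a cell type and a change in RNA per cell cannot be told apart.

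**Figure D3:**
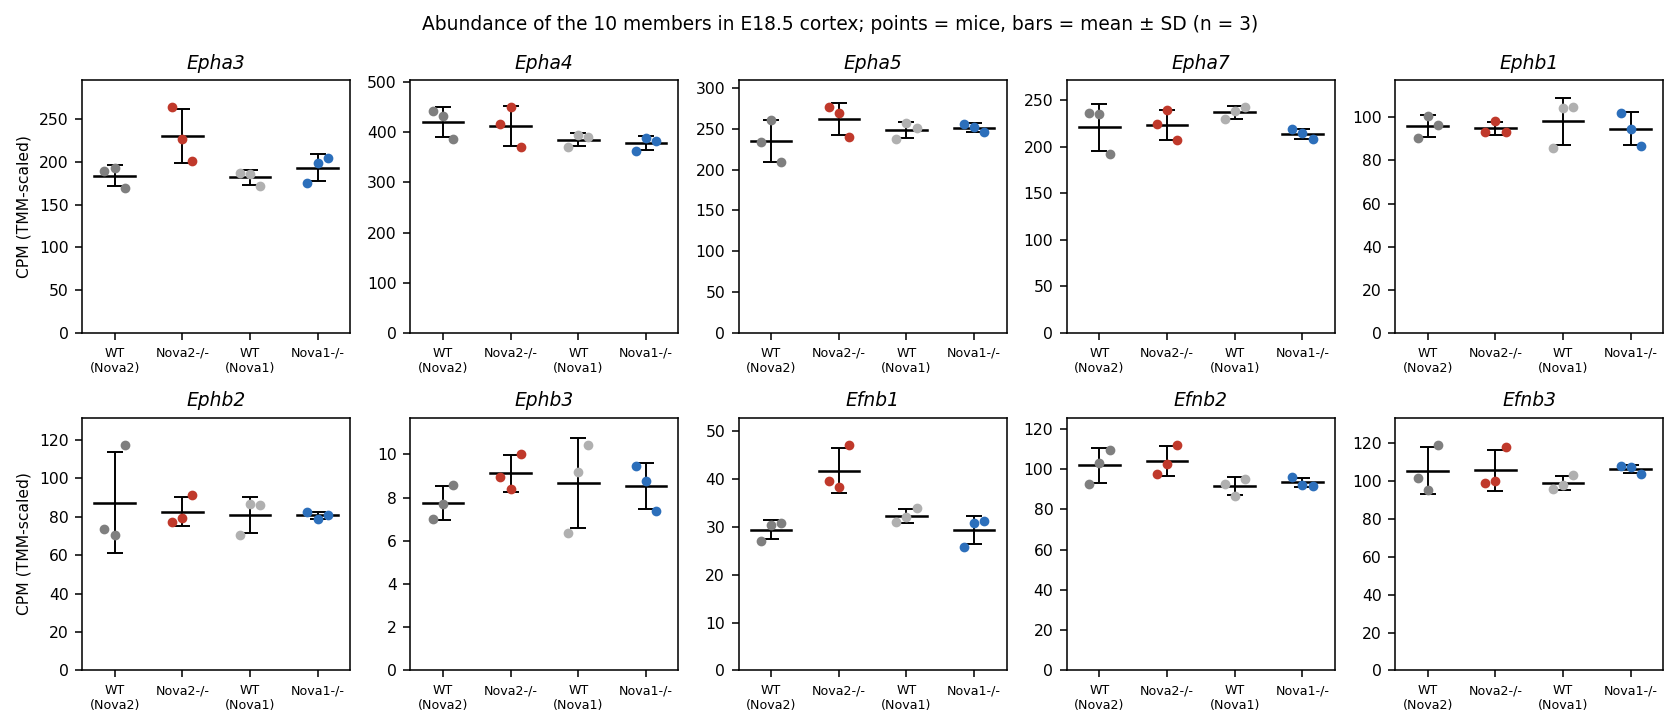
CPM of the 10 members in each of the 12 cortices (points), with the mean and SD of each group of 3 mice (bars), for wild-type littermates and knockouts of the *Nova2* and *Nova1* litters. The 3 *Nova2-/-* mice lie above their wild-type littermates for *Efnb1* (38.4 to 47.2 against 27.1 to 30.8) and for *Epha3* (201 to 264 against 170 to 192), and 1 wild-type mouse is high for *Ephb2* (117).

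Which members differ in abundance when NOVA2 is lost was then compared between *Nova2-/-* cortex and wild-type littermates. The QL test, edgeR's quasi-likelihood test, was used with Benjamini-Hochberg adjustment over all genes. In it 0 of the 10 members passed an FDR of 0.05, and 2 had an unadjusted p below 0.05. Over all 15691 genes tested, 166 passed, which is 1.06%, and 19.2% had an unadjusted p below 0.05. DESeq2 and edgeR's exact test each called 1 member, *Efnb1*. The share of 1.06% belongs to the QL test, and the share of all genes called by the other tests is not given here. The log2 fold changes of the 10 members had a median of 0.04, beside 0.01 over all genes, and 7 of 10 were above 0.

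*Efnb1*, an X-linked B-class ephrin, had the largest difference. Its CPM was 27.1, 30.4 and 30.8 in the 3 wild-type littermates and 39.7, 38.4 and 47.2 in the 3 *Nova2-/-* mice, so the groups did not overlap. The log2 fold change was 0.52 (standard error 0.11), or 1.43-fold, with an unadjusted p of 0.0015 and an adjusted p of 0.0756 in the edgeR QL test, which did not pass. The adjusted p was 0.0028 in DESeq2, 0.0137 in edgeR's exact test and 0.0113 with all 12 cortex samples in one fit. It was 0.0199 without wild-type replicate 3, a fit in which 1433 genes passed, and over the 6 fits that leave out 1 mouse it lay between 0.0199 and 0.237. Without wild-type replicate 2 the log2 fold change was 0.54, and without *Nova2-/-* replicate 3 it was 0.42.

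*Epha3*, an A-class receptor, was next, with 189, 192 and 170 CPM in wild-type littermates and 264, 227 and 201 in *Nova2-/-* mice. These groups did not overlap either. The log2 fold change reached 0.34 (standard error 0.10, adjusted p = 0.137, edgeR QL test), and the adjusted p was 0.0460 with all 12 cortex samples in one fit. *Efnb1* and *Epha3* were the only 2 of the 10 members whose groups of 3 mice did not overlap, and over all genes tested 26.4% had groups that did not overlap.

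The other 8 members had overlapping groups, with log2 fold changes from -0.07 to 0.24. Among the B-class receptors the values were 0.24 (standard error 0.15) for *Ephb3*, -0.0017 (standard error 0.07) for *Ephb1* and -0.07 (standard error 0.19) for *Ephb2*. The *Ephb2* value depended on 1 mouse. Its CPM was 73.8, 70.5 and 117 in the wild-type littermates and 77.3, 79.6 and 91.3 in *Nova2-/-* mice, and without wild-type replicate 3 the log2 fold change was 0.21. Among the A-class receptors the remaining values were 0.17 (standard error 0.09) for *Epha5*, 0.03 (standard error 0.09) for *Epha7* and -0.02 (standard error 0.09) for *Epha4*. Among the ephrins, *Efnb2* had 0.04 (standard error 0.09) and *Efnb3* 0.01 (standard error 0.11). The 3 genes with splicing events thus had abundances within 0.17 of wild type on the log2 scale, none past the test.

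Summed markers of other cell types were also higher in *Nova2-/-* cortex, in the same mice as *Efnb1* and *Epha3*. The summed CPM of 12 meningeal markers was 229, 303 and 577 in the wild-type littermates and 979, 889 and 1080 in *Nova2-/-* mice, with 12 of 12 log2 fold changes above 0, a median of 1.33 and 4 of 12 past the test. The sum of 8 endothelial markers was 179 to 227 against 258 to 272, with 7 of 8 log2 fold changes above 0 and 1 of 8 past the test. The largest rises in mean CPM were those of *Kdr*, 52.2 against 88.7, and *Flt1*, 18.8 against 30.1. *Cldn5* had 29.8 against 31.0, and *Esam* was lower, 18.2 against 16.7. The sum of 6 mural markers was 107 to 132 against 155 to 161, with 5 of 6 log2 fold changes above 0 and 1 of 6 past the test. That of 6 microglial markers was 48.3 to 58.6 against 59.0 to 71.5, with 3 of 6 log2 fold changes above 0 and 0 of 6 past the test. Among the microglial markers the mean of *Csf1r* was 23.4 against 34.7 CPM, while those of *P2ry12*, *Aif1* and *C1qa* were slightly lower in *Nova2-/-* mice. The 8 markers of radial glia summed to 1164 to 1520 against 1459 to 1541, and the 8 of cortical neurons to 991 to 1179 against 1016 to 1172. None of these markers was at 0 in any of the 12 mice. In the wild-type mice of the *Nova1* litters the meningeal sum was 804 to 1012, a range that overlaps that of the *Nova2-/-* mice, and *Efnb1* was 31.0, 32.2 and 33.9 CPM, below each of the 3 *Nova2-/-* mice. The part of these cell types in the difference of *Efnb1* and *Epha3* was not tested.

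The sex of the mice also differed between the groups, as far as sex-linked transcripts show. *Xist*, which is transcribed from the inactive X chromosome, was at 1576 CPM in replicate 1 of the *Nova2* wild-type littermates, at 4.22 and 11.6 CPM in replicates 2 and 3, and at 1809 to 1908 CPM in the 3 *Nova2-/-* mice. *Efnb1* lies on chromosome X (chrX:96331469-96344330), and its lowest value in the wild-type littermates, 27.1 CPM, was that of the mouse with high *Xist*. With a *Xist* level above 1000 CPM as a term in the fit, an alternative chosen after seeing the data, the log2 fold change of *Efnb1* was 0.65 and that of *Epha3* 0.31, with adjusted p-values of 0.181 and 0.436 and unadjusted p-values of 0.0038 and 0.0832 in the edgeR QL test. Only replicate 1 of these wild-type littermates was above that level. In this fit, and in that of the wild-type litters below, the comparison then rests on that 1 mouse. In the fit of the difference over 12 samples, *Nova1-/-* replicate 2 also lies below that level, at 128 CPM of *Xist*, and shares in setting the term. A call lost with this term is thus not a test of sex.

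**Figure D4:**
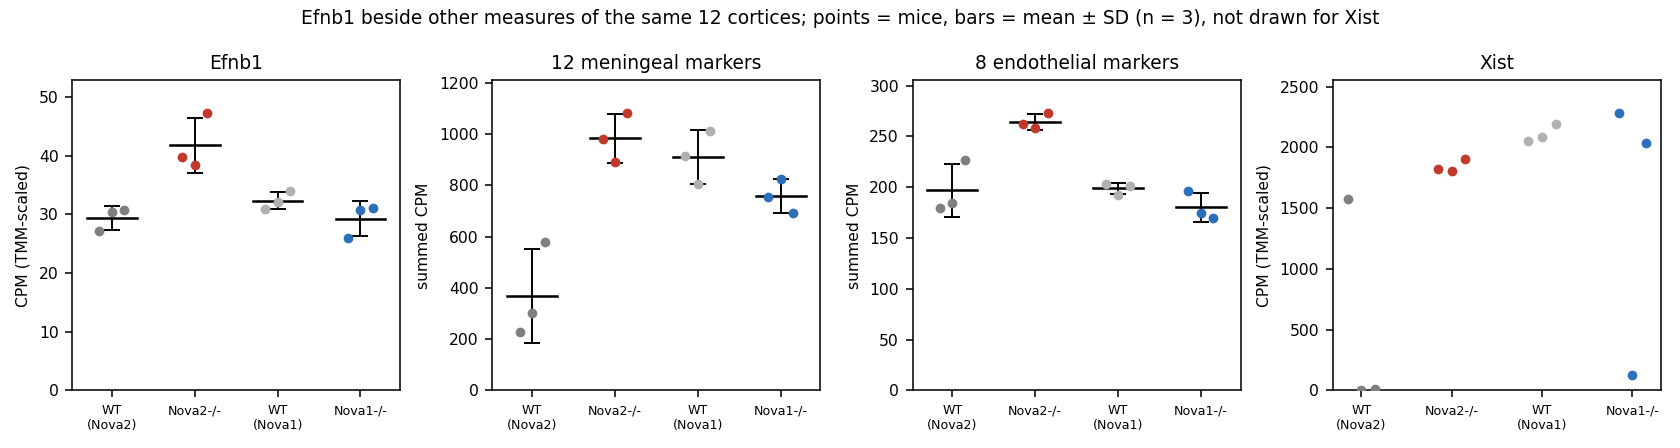
CPM of *Efnb1* and of *Xist* and summed CPM of 12 meningeal and 8 endothelial markers in each of the 12 cortices (points), with mean and SD of each group of 3 mice (bars) except for *Xist*. *Efnb1* is highest in the 3 *Nova2-/-* mice (38.4 to 47.2). The meningeal sum is 229 to 577 in the *Nova2* wild-type littermates and 692 to 1080 in the other 9 mice.

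The same question was asked for NOVA1. In *Nova1-/-* cortex 0 of the 10 members passed an FDR of 0.05 in the edgeR QL test, 1 had an unadjusted p below 0.05, and DESeq2 and edgeR's exact test called 0. Over all 15901 genes tested, 2 passed, which is 0.0126%. *Xist* was at 128 CPM in *Nova1-/-* replicate 2 and at 2034 to 2280 CPM in the other 5 mice of this comparison, and 0 of the 10 members passed without that mouse or with the *Xist* level as a term. The median log2 fold change of the members was -0.01, and 4 of 10 were above 0. In 2 of the 10 members the groups did not overlap, beside 13.5% of all genes tested. *Epha7* had 230, 238 and 242 CPM in wild-type littermates and 219, 214 and 208 in *Nova1-/-* mice, a log2 ratio of -0.15 (standard error 0.05, adjusted p = 0.548, edgeR QL test). *Efnb3*, known as a midline ligand that repels axons with EphA4, had 96.0, 97.9 and 103 CPM in wild-type littermates and 108, 107 and 104 in *Nova1-/-* mice, a log2 ratio of 0.10 (standard error 0.05, adjusted p = 0.705, edgeR QL test). Both differences were small, and neither passed.

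*Efnb1* went the other way in this comparison, with 31.0, 32.2 and 33.9 CPM in wild-type littermates and 25.9, 30.8 and 31.2 in *Nova1-/-* mice. Its groups overlapped, and the log2 fold change was -0.14 (standard error 0.09), or -0.18 without replicate 2 of the *Nova1-/-* mice. The other 7 members had log2 fold changes between -0.05 and 0.09.

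Whether the knockouts differed in their effect was tested directly, by taking the *Nova1-/-* change from the *Nova2-/-* change over the 12 cortex samples. *Efnb1* was the 1 of the 10 members that passed, beside 1.83% of the 16210 genes tested. The difference reached 0.65 on the log2 scale (standard error 0.15, adjusted p = 0.0404, edgeR QL test). DESeq2 also called *Efnb1* alone of the 10 members, and the share of all genes it called is not given here. With 1 mouse left out, the difference lay between 0.57 and 0.71 and the adjusted p between 0.0110 and 0.105. It stayed below 0.05 in 2 of the 12 fits, those without wild-type replicate 2 or 3 of the *Nova2* litters, and was above 0.05 without any 1 of the other 10 mice. With the *Xist* level as a term the difference was 0.79, with an adjusted p of 0.0674. The differences of the other 9 members lay between -0.10 and 0.25 and had adjusted p-values of 0.354 or more in the edgeR QL test. The *Epha3* difference was 0.24 (standard error 0.13), so its change in *Nova2-/-* cortex was not shown to differ from that in *Nova1-/-* cortex.

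**Figure D5:**
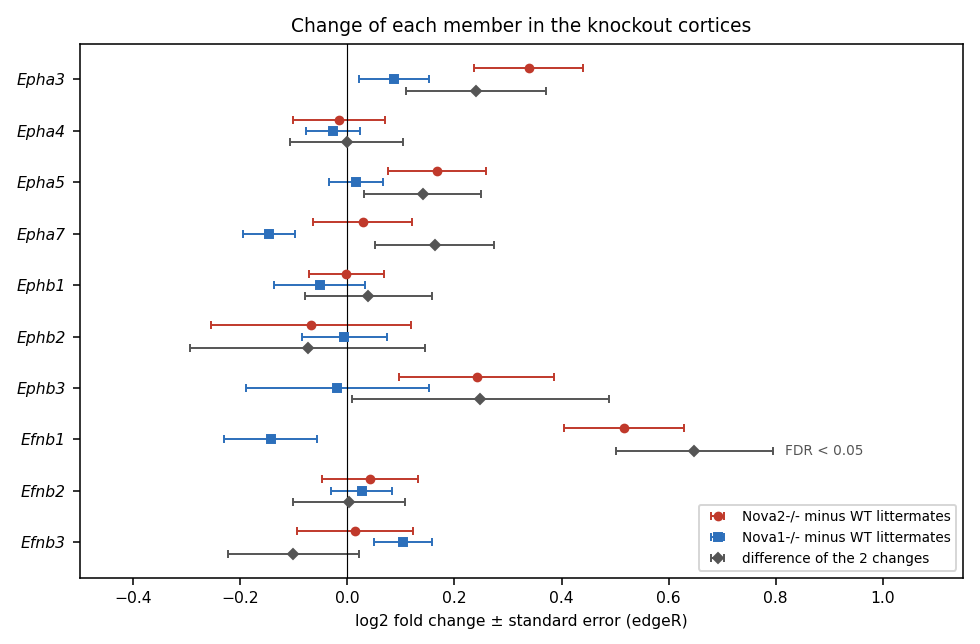
Log2 fold change with its standard error of each member in *Nova2-/-* cortex (circles) and *Nova1-/-* cortex (squares), each against wild-type littermates, and the difference of both changes (diamonds), from edgeR. The difference of *Efnb1* (0.65) is the only value marked as past an FDR of 0.05.

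Wild-type cortices of the *Nova1* and *Nova2* litters were compared as a background for these differences. 0 of the 10 members passed in the edgeR QL test, 0 had an unadjusted p below 0.05, and DESeq2 and edgeR's exact test called 0. Over all 15918 genes tested, 483 passed, which is 3.03%. The log2 differences of the members lay between -0.14 for *Efnb2* and 0.17 for *Ephb3*. *Efnb1* was higher in each of the 3 wild-type mice of the *Nova1* litters, by 0.15 (standard error 0.09), and was the 1 member whose groups did not overlap, beside 27.4% of all genes tested. Litter and processing of the litters cannot be told apart in this comparison, and *Xist* was high in 1 of the 3 mice from *Nova2* litters and in 3 of the 3 from *Nova1* litters. With the *Xist* level as a term the *Efnb1* value was 0.27 (adjusted p = 0.315, edgeR QL test), a fit that again rests on 1 wild-type mouse of the *Nova2* litters.

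The 12 other Eph receptors and ephrins had no event in the splicing table, and 0 of the 12 passed in *Nova2-/-* cortex, with 3 at an unadjusted p below 0.05. The highest log2 fold change was that of *Ephb4*, the receptor of venous endothelium and a partner of ephrin-B2, with 9.63, 11.5 and 15.8 CPM in wild-type littermates and 19.9, 21.5 and 17.6 in *Nova2-/-* mice, a value of 0.68 (standard error 0.19, adjusted p = 0.117, edgeR QL test). Like *Efnb1*, it stood beside the higher sum of endothelial markers, whose part in it was not tested. The lowest was *Epha8*, at -0.40 (standard error 0.13). Without NOVA1, 0 of the 12 passed and 1 had an unadjusted p below 0.05, with values between -0.22 for *Efna3* and 0.24 for *Epha2*. For the difference between the knockouts 0 of the 12 passed and 1 had an unadjusted p below 0.05, with *Ephb4* at 0.88 (standard error 0.22, adjusted p = 0.0572, edgeR QL test) and *Epha8* at -0.19. Between the wild-type litters 2 of the 12 passed. *Efna2*, a lipid-anchored ephrin, was lower in the *Nova1* litters, at -0.67 on the log2 scale (adjusted p = 0.0447, edgeR QL test), and *Epha6*, an A-class receptor, was higher by 0.41 (adjusted p = 0.0446, edgeR QL test). Both calls held in 1 of the 6 fits that leave out 1 mouse, the one without wild-type replicate 3 of the *Nova2* litters, and neither with the *Xist* level as a term.

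Of 34 genes of forward signalling, among them guanine nucleotide exchange factors, Src and Abl kinases, adaptors and phosphatases, 0 passed in *Nova2-/-* cortex, with 9 at an unadjusted p below 0.05 and a median log2 fold change of -0.01. *Abl1*, a kinase that acts on the actin cytoskeleton, was highest at 0.25, and *Acp1*, a phosphatase that acts on Eph receptors, lowest at -0.76 (adjusted p = 0.216, edgeR QL test). The CPM of *Acp1* was 20.6, 19.3 and 44.2 among the wild-type littermates, so 1 mouse stood far above the rest. It was 16.5, 16.3 and 16.9 in *Nova2-/-* mice. In the *Nova1* litters it was 17.3 to 20.9 in wild type and 17.4 to 21.5 in knockouts. Without NOVA1, 0 of the 34 passed and 3 had an unadjusted p below 0.05, from *Ngef*, the exchange factor ephexin, at -0.22 to *Rock1*, a kinase that acts on the cytoskeleton, at 0.13. For the difference between the knockouts 0 of the 34 passed and 9 had an unadjusted p below 0.05, from *Acp1* at -0.84 to *Itsn1*, an exchange factor for Cdc42, at 0.28. Between the wild-type litters 0 of the 34 passed and 7 had an unadjusted p below 0.05, from *Acp1* at -0.59 to *Ngef* at 0.31. The *Acp1* values for the difference and between the litters include the same high mouse as that in *Nova2-/-* cortex, so they are not independent. How far they rest on that mouse was not tested. Over all genes tested, the share with an unadjusted p below 0.05 was 19.2% in *Nova2-/-* cortex, 7.44% in *Nova1-/-* cortex, 18.2% for the difference and 21.1% between the wild-type litters.

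Of 12 genes of reverse signalling and ectodomain shedding, 1 passed in *Nova2-/-* cortex. *Ptpn13*, a phosphatase that binds the end of B-class ephrins, had 39.8, 41.8 and 43.2 CPM in wild-type littermates and 63.6, 63.0 and 71.1 in *Nova2-/-* mice, so the groups did not overlap. It rose by 0.68 on the log2 scale (standard error 0.09, adjusted p = 0.0229, edgeR QL test). In *Nova1-/-* cortex its value was -0.02 (standard error 0.08), and the difference between the knockouts was 0.68 (standard error 0.12, adjusted p = 0.0116, edgeR QL test). It was the 1 of the 12 that passed for the difference. The call in *Nova2-/-* cortex held in 1 of the 6 fits that leave out 1 mouse, the one without wild-type replicate 3, with adjusted p-values from 0.0016 to 0.147 and log2 fold changes from 0.61 to 0.71. With the *Xist* level as a term *Ptpn13* was at 0.75 in *Nova2-/-* cortex and 0.71 for the difference, with adjusted p-values of 0.107 and 0.0619 in the edgeR QL test. The meningeal, endothelial, mural and microglial sums were higher in the same 3 mice, and their part in the value of *Ptpn13* was not tested. Without NOVA1, 0 of the 12 passed and 0 had an unadjusted p below 0.05, from *Mmp9*, a secreted protease, at -0.39 to *Rgs3*, a regulator of G protein signalling bound by B-class ephrins, at 0.15. Between the wild-type litters 1 passed, *Adam10*, a protease that sheds ephrins, which was higher in the *Nova1* litters by 0.49 (adjusted p = 0.0301, edgeR QL test), a call that held in the same 1 of 6 fits and not with the *Xist* level as a term.

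Genes that act with the Eph receptors and ephrins also had events in the table. Of the 34 forward signalling genes 7 had events, 33 in all, and of the 12 of reverse signalling and shedding 2 had events, 4 in all. As shares these are 20.6% and 16.7% of the genes, beside 3 of the 10 members and 2.19% of the 23038 gene symbols, of which 505 had an event. Members and lists were chosen with earlier results of these data known, and the gene symbols include genes too low in cortex to be tested. The shares are therefore a description and not a test of enrichment. Taking the event of largest |*Δ*I| in *Nova2-/-* cortex for each gene, *Pak3*, a kinase activated by Rac and Cdc42, had -0.460, *Kalrn*, an exchange factor for Rac, 0.316, *Rock1* 0.298, *Itsn2* 0.295 and *Anks1b* -0.276. *Ptk2*, focal adhesion kinase, had 0.186 and *Chn1*, a Rac GTPase-activating protein downstream of EphA4, -0.123. *Grip1* and *Pick1*, which bind the end of B-class ephrins through PDZ domains, had -0.348 and -0.115. None of these 37 events passed both limits in *Nova1-/-* cortex or in *Nova1-/-* midbrain and hindbrain, beside 0.904% and 5.98% of all 1991 events. Some of the events named here still had |*Δ*I| above 0.1 without NOVA1. In *Nova1-/-* cortex these were *Pak3* at 0.175 and *Chn1* at -0.139. In *Nova1-/-* midbrain and hindbrain they were *Rock1* at 0.195, *Pak3* at -0.144 and *Ptk2* at -0.144. The 19 events of *Anks1b* lie in 1 continuous stretch, as do the 6 of *Pak3*, the 2 of *Grip1* and the 2 of *Pick1*. The 4 of *Ptk2* lie in 2 stretches. Events that share a stretch are not independent, so the 37 events stand for far fewer stretches, and 0 of 37 is not read as a shortfall.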

How the data were processed

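RNA-seq libraries of embryonic day 18.5 cortex from 12 mice were compared. The authors aligned reads to mm10 with OLego and deposited expected counts per gene symbol, not normalized. The counting program and annotation are not given in the sources used here. Columns with the authors' own comparisons (log2 fold changes, FDR) in that table were not used. For splicing, the authors deposited *Δ*I as a score from -1 to 1 and its FDR, an adjusted p-value, with mm9 positions. These events had been filtered by the authors for *Nova2-/-* cortex and NOVA binding.

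Expected counts were rounded to whole numbers and analysed with edgeR 4.0.16 in R 4.3.3 (TMM, filterByExpr, quasi-likelihood or QL test, Benjamini-Hochberg adjustment over all genes, FDR of 0.05). The fits held the 6 samples compared, or 12 for the difference between knockouts. Displayed CPM were scaled over all 12. The test was checked on simulated data. Alternatives included DESeq2 1.42.0. P-values measure the spread between 3 mice per group. Starts of events were shifted by 1 to count from 1. Exons, lengths and sequences came from GENCODE M1 and the mm9 genome, read with Python 3.11.15. Members, events and gene lists were chosen with earlier results of these data known. All 10 members and their events are named, and of each pathway list the genes past the test, at most 5, or else the highest and lowest log2 fold change, and each gene with an event. Protein sequences were not used here.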

Additional observations from a re-analysis of the deposited data

Results flagged for a closer look

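The change in *Nova2-/-* cortex differed from the change in *Nova1-/-* cortex for 1 of the 10 members, *Efnb1*, by 0.65 on the log2 scale, and for 1 gene of reverse signalling, *Ptpn13*, by 0.68, both by the test of the difference itself in edgeR's quasi-likelihood fit over 12 samples, with adjusted p-values of 0.0404 and 0.0116. *Efnb1* was higher in 3 of 3 *Nova2-/-* mice than in each of their wild-type littermates, and *Ptpn13* was too. With 1 mouse left out, the *Efnb1* call held in 2 of 12 fits and that of *Ptpn13* in 12 of 12. In the same test of the difference, 12 of 12 meningeal markers were above 0, with a median of 1.54 and 7 past the test. Of the endothelial markers 7 of 8 were above 0 and 1 passed. The part of these cell types in both values was not tested. Single outlying values within a group were not flagged, since that rule was not applied to groups of 3.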

How the results depend on the processing

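The count of members past the threshold in *Nova2-/-* cortex was 0, and it became 1 in DESeq2, 1 in edgeR's exact test and 2 with all 12 cortex samples in one fit, in which *Epha3* joined *Efnb1*. The share of all genes called under these alternatives is not given here, so a higher count of members has no background beside it. With 1 mouse left out the count of members was 0 to 1, and it was 1 without wild-type replicate 3. For the difference between the knockouts the count of 1 became 0 when a log2 fold change of at least 1 was also asked for and 0 with the *Xist* level as a term, and with 1 mouse left out it was 0 to 1. The counts in *Nova1-/-* cortex and between the wild-type litters were 0 under each alternative, as were the counts of events in *Nova1-/-* tissue, and the number of distinct stretches was 5 when only identical spans were joined, against 4.

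Small log2 values changed sign. *Ephb1* in *Nova2-/-* cortex became 0.0056 without a filter and 0.0074 with upper-quartile normalization. The *Epha4* difference became 0.0069, 0.017 and, in DESeq2, 0.0034, and *Epha3* between the wild-type litters became 0.0048 without a filter and 0.00015 with upper-quartile normalization. With the *Xist* level as a term, *Epha7*, *Ephb1* and *Ephb2* became -0.059, 0.092 and 0.19 in *Nova2-/-* cortex, *Ephb2* 0.014 in *Nova1-/-* cortex, *Ephb2* 0.078 for the difference, and *Ephb2* 0.15 and *Efnb2* 0.0041 between the wild-type litters. The cause was not tested.

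With each mouse left out in turn, values that crossed 0 in *Nova2-/-* cortex ranged from -0.097 to 0.053 for *Epha4*, -0.060 to 0.079 for *Epha7*, -0.045 to 0.035 for *Ephb1*, -0.20 to 0.21 for *Ephb2*, -0.026 to 0.10 for *Efnb2* and -0.077 to 0.12 for *Efnb3*. In *Nova1-/-* cortex they ranged from -0.049 to 0.0047 for *Epha4*, -0.012 to 0.043 for *Epha5*, -0.14 to 0.0080 for *Ephb1*, -0.095 to 0.046 for *Ephb2*, -0.20 to 0.14 for *Ephb3* and -0.0073 to 0.054 for *Efnb2*. For the difference they ranged from -0.060 to 0.088 for *Epha4*, -0.018 to 0.14 for *Ephb1*, -0.18 to 0.22 for *Ephb2*, -0.056 to 0.074 for *Efnb2* and -0.17 to 0.010 for *Efnb3*. Between the wild-type litters they ranged from -0.053 to 0.034 for *Epha3*, -0.010 to 0.14 for *Ephb1*, -0.23 to 0.18 for *Ephb2* and -0.15 to 0.024 for *Efnb3*.

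With a replicate block in the *Nova2* litters the count of members stayed 0, with 220 genes called over the table against 166, and it changed no call among the 10 members and *Ptpn13*, the results it was run for. Same-numbered mice deviated together with correlations of 0.130, 0.0506 and 0.218, and mice with different numbers with -0.226 to 0.147. These values do not settle whether the numbers are pairs, and the main fit did not take them as pairs. Depth limits *Ephb3* most, with 128 to 328 counts per mouse.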

Other observations

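Sex-linked transcripts were also measured in the *Nova1* litters. *Xist* was at 2056, 2090 and 2189 CPM in the 3 wild-type mice and at 2280, 128 and 2034 CPM in *Nova1-/-* replicates 1, 2 and 3. The summed CPM of 4 Y-linked genes was 0.632, 443 and 26.5 in the same *Nova1-/-* replicates. *Nova2-/-* replicate 3 had 1908 CPM of *Xist* and 19.7 CPM of the Y-linked genes, while replicates 1 and 2 had 0.178 and 0.448 CPM of the Y-linked genes. Thus 3 of the 12 libraries held both *Xist* above 100 CPM and more than 10 CPM of Y-linked transcripts.

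*Rgs3*, whose product binds B-class ephrins, had groups of 3 that did not overlap in *Nova2-/-* cortex, with a log2 fold change of 0.37 (adjusted p = 0.102 in the edgeR QL test), and it was chosen after its values were seen.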
